A study of Cannabis sativa with 12 samples.

Results

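Ribosomal protein genes of the hemp hypocotyl were followed over secondary growth. Members were the contigs of the deposited table whose gene symbol begins with RPL or RPS and a number, or whose description names a ribosomal protein, with kinases and methyltransferases left out. These were 43 of 3622 contigs. By the wording of the description, or of the matched Arabidopsis record where the description gave no compartment, 29 belonged to the plastid ribosome (12 of the small and 17 of the large subunit), 12 to the cytosolic ribosome (6 of the small and 6 of the large subunit) and 2 to neither. The word chloroplast or plastid stood in the matched record of 27 of the 29 plastid members and of 0 of the 12 cytosolic members; the 2 plastid members without it were L4 and L1, which were placed by their bacterial-type names. No member was described as mitochondrial.

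The hypocotyl is the stem below the seed leaves, which first elongates and then thickens. Whole hypocotyls of Cannabis sativa cv. Santhica 27, with no treatment, were harvested on day 6 (H6), day 9 (H9), day 15 (H15) and day 20 (H20) from sowing, from plants kept on a light period of 16 h (25°C) and a dark period of 8 h (20°C). Each time point had 3 libraries, each from a pool of 20 hypocotyls of a single experimental batch, so that the spread is between pools and not between plants. The question was how expression changes between young, elongating hypocotyls and older ones that form secondary walls and bast fibers.

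Plant cells translate in 3 compartments. Cytosolic ribosomes are of the eukaryotic type, and their proteins are encoded in the nucleus by small gene families; demand for them is high in growing and dividing cells. Plastid ribosomes are of the bacterial type and make a small set of proteins encoded in the plastid genome, among them core subunits of the photosystems and the large subunit of Rubisco, while most of their own proteins are encoded in the nucleus and imported.

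Expression was given by the authors as read counts and as RPKM, the reads per kilobase of contig scaled to the mapped reads of the library, which allows levels to be compared between contigs of different length. Mapped reads ranged from 13413472 to 25855405 per library, and 31.1 to 36.8% of them fell in the 3622 contigs. The lowest count of a member in a library was 32 reads, for plastid L28, and the highest was 22626, for L10-2. All contigs of the table had been kept by the authors for differing among the time points (FDR under 0.05, a ratio above 2 and a difference above 10 RPKM between the highest and lowest mean). Ribosomal protein contigs outside that selection were not analysed here, and a call below is a call within it. Log2 fold changes and adjusted p-values were obtained with edgeR on the counts of all 3622 contigs, and the call was higher or lower where the adjusted p was under 0.05.

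All plastid members but 1 moved in the opposite direction to the cytosolic members between day 6 and day 20. In H20 against H6, 28 of the 29 plastid members were lower and 1 was higher, while 12 of the 12 cytosolic members were higher. The median log2 fold change was -1.11 for the plastid members (from -1.60 to 1.16) and 1.16 for the cytosolic members (from 1.09 to 1.34), against -0.58 for all contigs. Of all 3622 contigs, 52.8% were called lower and 40.8% higher in this comparison. With a log2 fold change over 1 asked for as well, 20 plastid members were lower and 1 higher, against 37.4% of all contigs lower and 34.2% higher. All 12 cytosolic members were higher by this rule. They had their lowest mean in H6 and their highest in H20 or H15. As the authors kept contigs by the ratio of these means, the selection set a floor to the size of this change, but not its direction. The 3 H20 libraries lay below the 3 H6 libraries for the 28 plastid members that fell (53.3% of all contigs) and above them for the plastid member that rose and for the 12 cytosolic members (40.1% of all contigs). No call at an adjusted p under 0.05 was lost in any alternative fit that held the contig or without any single library. L28 was not among the contigs with a mean of at least 100 reads. The counts past a log2 fold change of 1 were not followed in the alternatives. With DESeq2 the plastid median was -0.82. As whole hypocotyls were sampled, fewer cells of a type and less RNA per cell cannot be told apart.

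**Figure D1:**
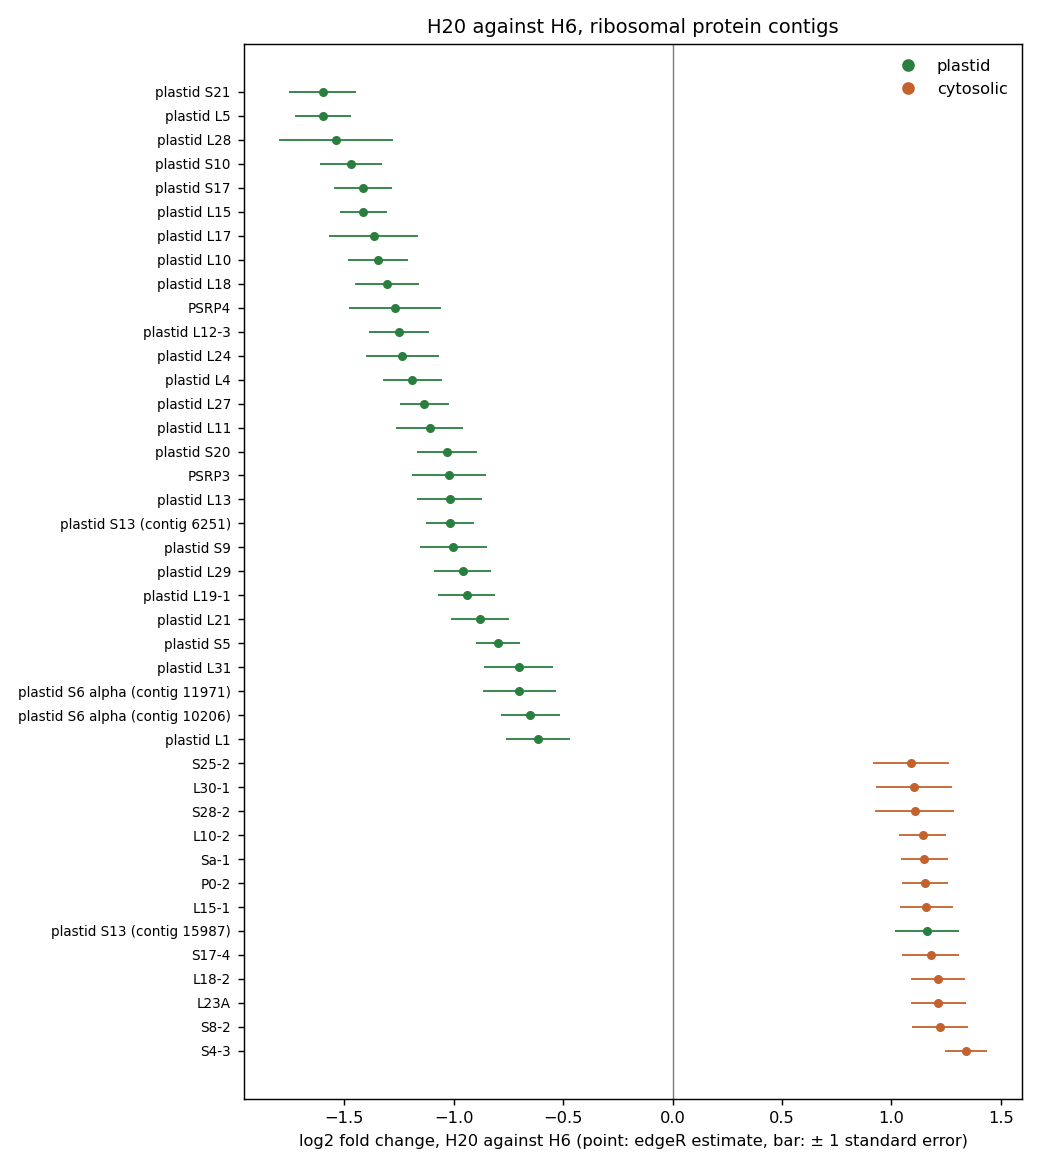
Log2 fold change in H20 against H6 for the 29 plastid (green) and the 12 cytosolic (orange) ribosomal protein contigs, sorted from the lowest to the highest; points are edgeR estimates and bars are 1 standard error to each side. The 28 plastid members that fell lie between -1.60 and -0.61, and the plastid S13 contig 15987 lies at 1.16 among the cytosolic members.

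Summed over its members, the plastid class reached 2742 ± 405 RPKM at H6, then 1426 ± 65.5 at H9, 996 ± 42.5 at H15 and 1216 ± 31.5 at H20 (SD, n = 3). The cytosolic class reached 2551 ± 323 RPKM at H6, then 4644 ± 427 at H9, 5055 ± 355 at H15 and 5353 ± 322 at H20. The plastid sum divided by the cytosolic sum was 0.974, 0.995 and 1.27 in the H6 libraries, 0.305, 0.287 and 0.334 in the H9 libraries, 0.194, 0.194 and 0.204 in the H15 libraries, and 0.233, 0.216 and 0.234 in the H20 libraries. This ratio was therefore near 1 on day 6 alone, and the libraries of the 4 time points did not overlap in it. Because both sums come from the same library, the ratio does not depend on how the libraries are scaled. It does depend on which contigs the authors kept, as both sums hold only contigs selected for differing among the time points. Neither its level nor the size of its fall therefore describes all plastid and cytosolic ribosomal protein genes.

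**Figure D2:**
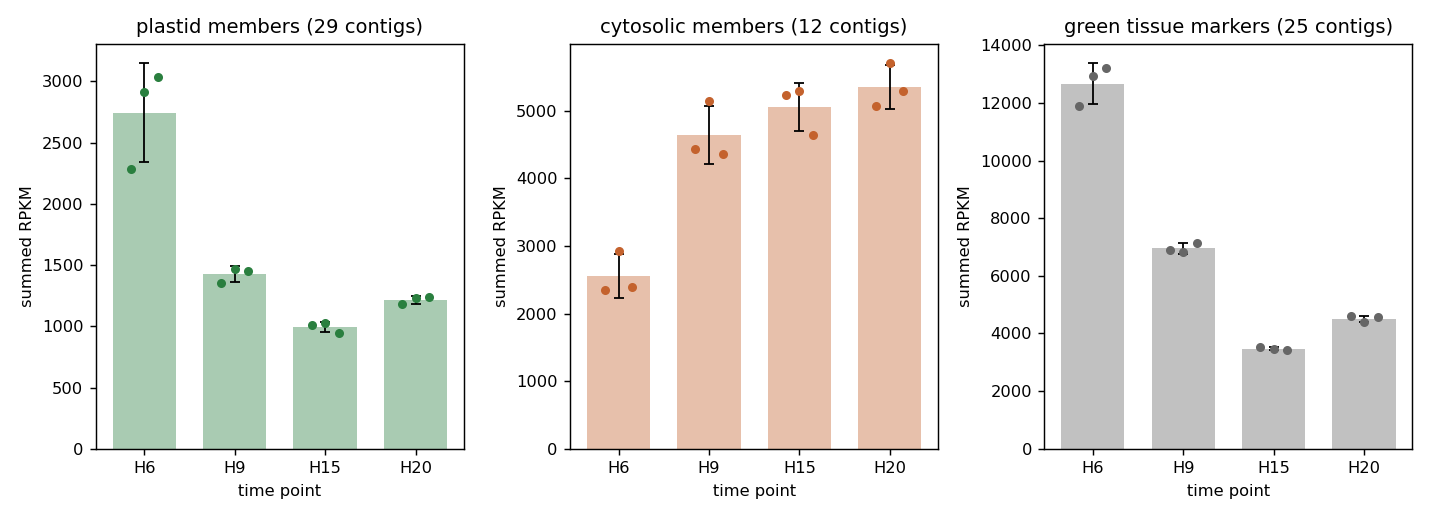
Summed RPKM of the plastid members, the cytosolic members and the green tissue markers at H6, H9, H15 and H20; bars are means of 3 pools, error bars are SD and points are libraries. The plastid sum is highest at H6 (2742) and lowest at H15 (996), the cytosolic sum climbs from H6 (2551) to H20 (5353), and the marker sum follows the order of the plastid sum over the 4 time points.

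The change lay mostly in the first interval. In H9 against H6, 27 plastid members were lower (36.8% of all contigs) and 1 higher (37.9% of all contigs), with a median log2 fold change of -1.12, and the 12 cytosolic members were higher, with a median of 0.82 (range 0.63 to 1.10), against a median of 0.03 for all contigs. Past a log2 fold change of 1, 18 plastid members were lower (18.2% of all contigs), and 1 plastid and 2 cytosolic members were higher (17.9%). The H9 libraries lay below the H6 libraries for 26 plastid members (36.6% of all contigs) and above them for 1 plastid and 12 cytosolic members (38.1%). From H9 to H15, 12 of the 29 plastid members fell (41.3% of all contigs) and 2 rose (38.3%), with a median of -0.33. Of the 12 cytosolic members, 4 (L10-2, L18-2, Sa-1 and P0-2) were higher, beside 38.3% of all contigs, with a median of 0.24. The median of all contigs was -0.12. In H20 against H15, 5 plastid members were higher (17.0% of all contigs) and 0 lower (24.4%), with a median of 0.26, against -0.07 for all contigs. In this last interval 0 cytosolic members were called by edgeR in either direction, 0 also at an unadjusted p under 0.05, and 0 by DESeq2 or limma, with a median of 0.11.

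The later intervals were the less stable ones. In them, edgeR called each class in the direction of its median about as often as all contigs, or less often. The 5 plastid calls in H20 against H15 were 1 without library 1 of H15 (L12-3) and 3 without library 3 of H15 or any library of H20, and they became 8 with DESeq2 and 10 in a fit of those 2 time points alone; that fit also called 4 cytosolic members higher. The 12 plastid members lower in H15 against H9 became 19 with limma and 18 with libraries scaled by mapped reads alone, and the 4 cytosolic members became 1 with limma or with libraries scaled by mapped reads alone, and 2 without library 1 of H9 or library 2 of H15.

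**Figure D3:**
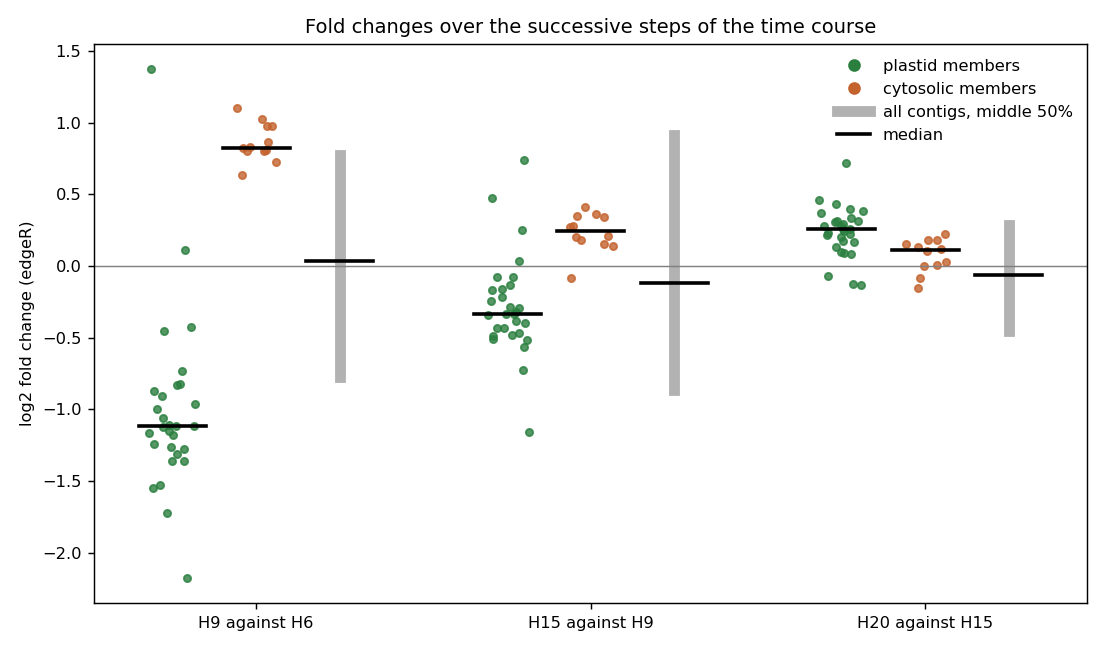
Log2 fold change of each plastid and cytosolic member in each of the 3 successive intervals (dots), with the class median and, in grey, the middle 50% of all 3622 contigs. Plastid medians are -1.12, -0.33 and 0.26, and cytosolic medians are 0.82, 0.24 and 0.11.

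Set against its own H6 mean, the median plastid member stood at 0.464 in H9, 0.360 in H15 and 0.433 in H20, and the median cytosolic member at 1.79, 1.99 and 2.08. The highest mean was in H6 for 27 of the 29 plastid members and in H9 for the other 2 (L1 and S13 contig 15987), while 40.6% of all contigs had their highest mean in H6. The lowest mean was in H15 for 24 plastid members, in H9 for 3, in H20 for 1 (S17) and in H6 for 1. All 12 cytosolic members had their lowest mean in H6; 10 had the highest in H20 and 2 (S25-2 and S28-2) in H15. The highest mean divided by the lowest was 2.08 to 4.46 for plastid members (median 2.80) and 2.00 to 2.36 for cytosolic members (median 2.10), with a median of 3.29 for all contigs. The cytosolic members thus stand just above the 2-fold ratio by which the authors kept contigs.

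**Figure D4:**
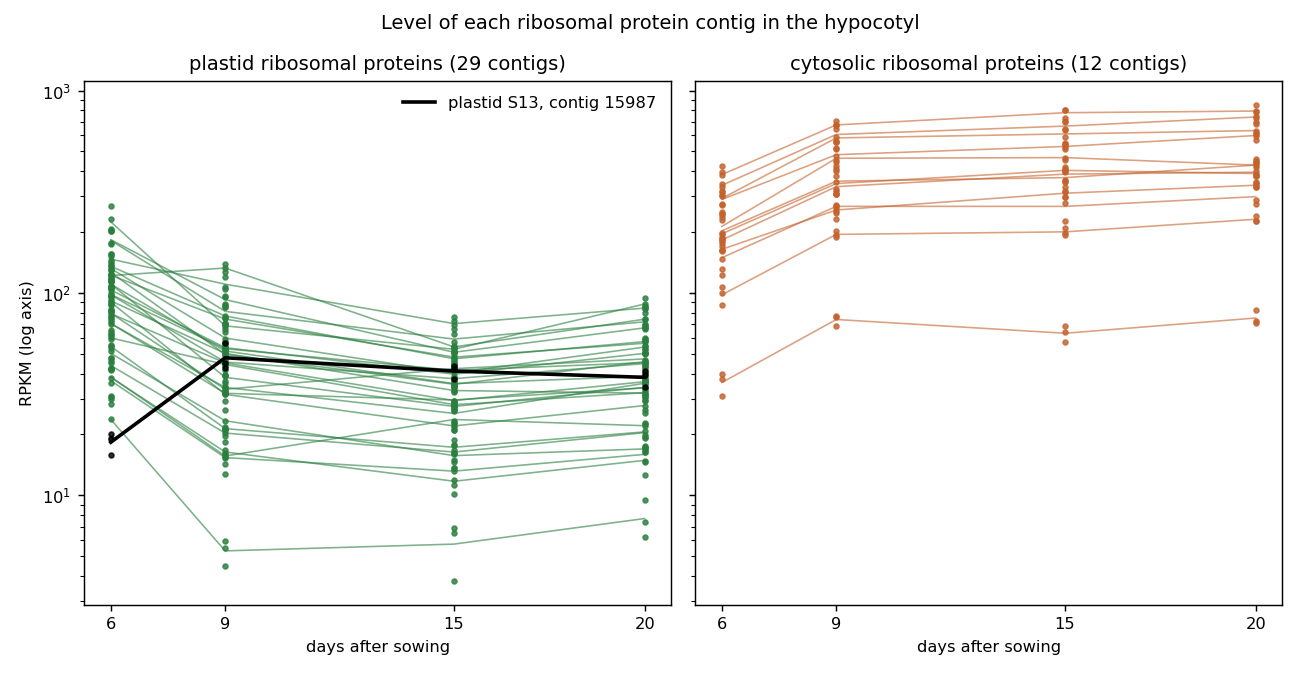
RPKM (log axis) of each plastid and each cytosolic member by time point; lines join the means of 3 pools and points are libraries, and the S13 contig 15987 is drawn in black. Plastid lines drop between H6 and H9 except those of L1 and contig 15987, and the 12 cytosolic lines climb over the same interval.

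Among the plastid small subunit members, 11 of 12 were lower in H20 against H6 and 1 was higher, with a median log2 fold change of -1.02. S21 (contig 2826, GHS1), a small protein of the bacterial-type small subunit whose Arabidopsis gene was named for a glucose-hypersensitive mutant, had the lowest fold change. Its RPKM was 30.7, 35.4 and 36.5 in the H20 libraries, against 96.9, 115 and 121 in the H6 libraries. The time points lay far apart, and the log2 fold change was -1.60 ± 0.15 (SE; edgeR adjusted p = 4.7e-07). Most of this difference was already present in H9, with 39.2, 36.9 and 38.8 RPKM. S10 (contig 1668), a protein of the head of the small subunit whose bacterial counterpart also takes part in transcription antitermination, had 16.4, 17.4 and 17.1 RPKM in H20, against 44.97, 51.65 and 54.48 in H6 (log2 fold change -1.47 ± 0.14, edgeR adjusted p = 4.9e-07). Its H9 libraries, at 23.4, 20.3 and 26.4 RPKM, lay between those of H6 and H20 without touching either.

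The other small subunit members that fell spread over a narrow range of fold changes. S17 (contig 4301), which had its lowest mean in H20, averaged 32.0 ± 3.15 RPKM in H20 and 91.5 ± 8.92 in H6 (log2 fold change -1.42). The plastid-specific proteins PSRP4 and PSRP3, which have no counterpart among the standard bacterial ribosomal proteins, averaged 14.9 ± 2.50 RPKM in H20 and 38.3 ± 7.27 in H6 (-1.27), and 45.3 ± 4.63 in H20 and 98.4 ± 19.5 in H6 (-1.02). S20 averaged 44.8 ± 1.03 RPKM in H20 and 98.0 ± 14.7 in H6 (-1.03), and S9 averaged 20.4 ± 1.95 in H20 and 43.8 ± 6.73 in H6. S5, which lies by the decoding region of the small subunit, fell by 0.80 on the log2 scale, with 33.0, 31.8 and 31.7 RPKM in H20, against 53.4, 62.7 and 64.0 in H6. Its fall in H9 against H6 (-0.45, edgeR adjusted p = 0.0014) did not pass with DESeq2 (adjusted p = 0.068), while its fall in H15 against H9 (-0.52) was called in every alternative.

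Both S6 alpha contigs followed a course of their own after day 9. S6 lies on the platform of the small subunit. Contig 11971 had 30.7, 42.3 and 42.3 RPKM in H6, 16.0, 15.3 and 15.7 in H9, 27.0, 23.1 and 21.0 in H15, and 20.0, 20.9 and 25.5 in H20. Contig 10206 had 72.1, 91.6 and 74.9 RPKM in H6, 31.7, 32.5 and 36.1 in H9, 44.4, 43.4 and 39.0 in H15, and 50.8, 46.7 and 44.3 in H20. The H15 libraries lay above the H9 libraries in both contigs, and these were the 2 plastid members called higher in H15 against H9, by 0.74 ± 0.17 (edgeR adjusted p = 0.0014) and 0.48 ± 0.14 (adjusted p = 0.0058). Both calls held in every alternative fit and without any single library. In H20 against H6 they were lower by less than most plastid members, with -0.70 ± 0.17 and -0.65 ± 0.13. The contigs share 1 Arabidopsis match (AT1G64510), with lengths of 536 and 492 bases, so that they may be parts or copies of 1 gene and are not independent members.

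The 2 contigs matched to S13 (AT5G14320), a protein of the head of the small subunit that faces the large subunit, went opposite ways. Contig 6251 had 113, 124 and 129.8 RPKM in H6, 70.7, 75.4 and 77.0 in H9, 52.1, 48.3 and 44.2 in H15, and 51.4, 59.9 and 58.2 in H20. It fell like most plastid members, with a log2 fold change of -1.02 ± 0.11 in H20 against H6 (edgeR adjusted p = 1.2e-06). Contig 15987 had 15.8, 20.2 and 18.9 RPKM in H6, 42.4, 56.3 and 44.9 in H9, 42.0, 43.8 and 37.6 in H15, and 34.5, 41.0 and 39.4 in H20. It was the only plastid member called higher in H20 against H6 (1.16 ± 0.15, edgeR adjusted p = 5.3e-06) and the only one called higher in H9 against H6 by edgeR (1.37 ± 0.15, adjusted p = 3.8e-06). Contig 6251 was the higher of the pair at every time point, without overlap, and its lead was widest on day 6 and narrowest on day 15, when the means were 48.2 and 41.1 RPKM. In Arabidopsis a further nuclear S13 gene of plastid origin serves the mitochondrial ribosome. The compartment of contig 15987 rests on its best match alone and was not tested.

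**Figure D5:**
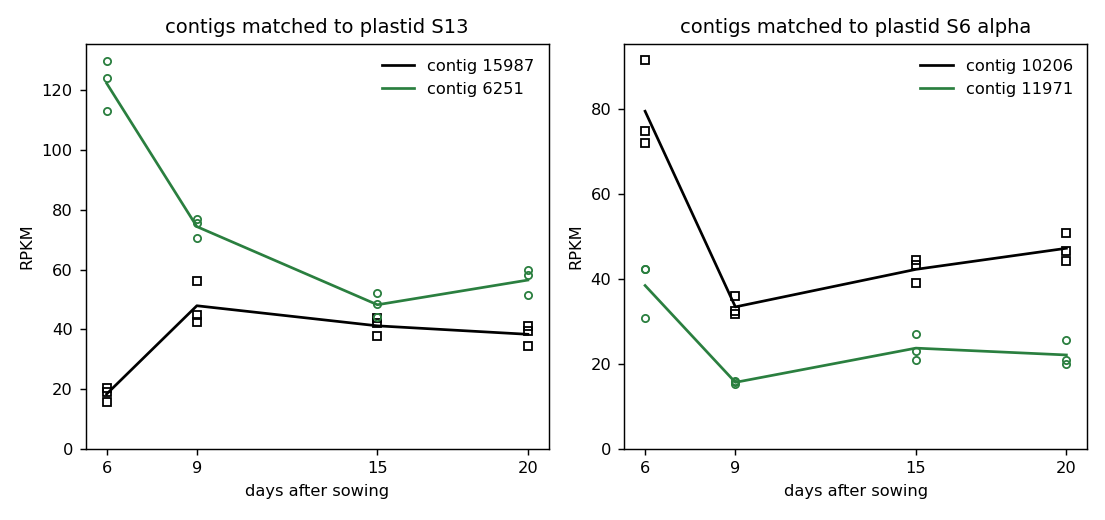
RPKM by time point of the contig pairs that share an Arabidopsis match, S13 (contigs 6251 and 15987) and S6 alpha (contigs 10206 and 11971); points are libraries and lines join means. The S13 contigs move in opposite directions (means of 122 and 18.3 RPKM in H6, 56.5 and 38.3 in H20), and the S6 alpha contigs move together.

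All 17 plastid large subunit members were lower in H20 against H6, with a median log2 fold change of -1.19. L5 (contig 5259), part of the central protuberance of the large subunit, had 26.5, 27.6 and 29.4 RPKM in H20, against 76.4, 88.4 and 106 in H6 (log2 fold change -1.60 ± 0.13, edgeR adjusted p = 8.3e-08). L28 (contig 14539), the least expressed plastid member, had 6.21, 9.49 and 7.37 RPKM in H20, against 19.3, 23.8 and 28.2 in H6 (-1.54 ± 0.26, edgeR adjusted p = 7.9e-05). Its H9 libraries, at 4.50, 5.98 and 5.49 RPKM, gave the lowest fold change of any member in H9 against H6, with -2.17 ± 0.27. L28 has the fewest reads of all members and accordingly the widest standard errors of the plastid class.

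The 3 plastid members with the highest mean over the 12 libraries were L12-3, L31 and L10. L12 and L10 form the stalk of the large subunit, where translation factors dock. L12-3 (contig 4777) had 175, 231 and 268 RPKM in H6, 70.5, 69.5 and 66.4 in H9, 53.6, 54.7 and 49.9 in H15, and 84.2, 94.2 and 86.4 in H20. It was lower in H20 against H6 (-1.25 ± 0.14, edgeR adjusted p = 1.5e-06), and its H20 libraries lay above those of both H9 and H15. Its rise in H20 against H15, 0.72 ± 0.14 (edgeR adjusted p = 0.0012), was the largest of any member in that interval and held in every alternative fit and without any single library. L10 (contig 1818) had 68.1, 67.2 and 66.5 RPKM in H20, against 143, 202 and 205 in H6 (-1.35 ± 0.14, edgeR adjusted p = 8.3e-07). It stood at 47.8, 54.2 and 50.9 RPKM in H15, and its rise in H20 against H15 (0.37 ± 0.14, edgeR adjusted p = 0.044) was lost in 7 of the 12 fits without 1 library. L31 (contig 4478, emb2184), whose Arabidopsis gene is needed for embryo development, had 108, 157 and 176 RPKM in H6, 105, 120.0 and 107 in H9, 76.0, 73.1 and 62.7 in H15, and 88.1, 79.4 and 85.1 in H20. Its H6 and H9 libraries overlapped, and its call in H9 against H6 (-0.43 ± 0.16, edgeR adjusted p = 0.025) was lost with DESeq2 (adjusted p = 0.32) and without library 2 or 3 of H6 or library 1 or 3 of H9 (adjusted p from 0.059 to 0.13). Its log2 fold change in H20 against H6 was -0.70 ± 0.16 (edgeR adjusted p = 0.00081).

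L1 (contig 3063), the protein of the mobile stalk by which spent tRNA leaves the ribosome, was the only plastid member not called by edgeR in H9 against H6. It had 122, 129 and 114 RPKM in H6, 127, 139 and 132 in H9, 54.2, 41.7 and 66.5 in H15, and 83.1, 69.2 and 70.3 in H20. In H9 against H6 the libraries overlapped and the log2 fold change was 0.11 ± 0.14 (edgeR adjusted p = 0.50; DESeq2 called it higher, with 0.34 and an adjusted p of 0.032). In H15 against H9 it fell by 1.16 ± 0.15 on the log2 scale (edgeR adjusted p = 1.2e-05), the only plastid member whose fall passed a log2 fold change of 1 in that interval (20.8% of all contigs). In H20 against H6 it had the smallest fall of the class, -0.61 ± 0.15 (edgeR adjusted p = 0.0013).

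The remaining 11 large subunit members lay between these. L15, L17, L18, L24 and L4, of which L4 lines the exit tunnel for the growing chain, had log2 fold changes of -1.41, -1.37, -1.30, -1.23 and -1.19 in H20 against H6. L27, near the catalytic centre, had -1.14 and L11, at the base of the stalk, had -1.11. L13, L29, L19-1 and L21 had -1.02, -0.96, -0.94 and -0.88. For L15, as an example, the levels were 37.6, 38.5 and 40.2 RPKM in H20, against 97.0, 119 and 116 in H6, and all 11 had H20 libraries below the H6 libraries. The 5 plastid members called higher in H20 against H15, beside 17.0% of all contigs, were the large subunit members L12-3, L21 (0.46), L1 (0.43), L4 (0.40) and L10 (0.37), and only L12-3 was still called without library 1 of H15.

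The 12 cytosolic members all rose in H20 against H6, with a median log2 fold change of 1.16 in the small and 1.16 in the large subunit. S4-3 (contig 1947), a small subunit protein, rose most. It had 226, 241 and 227 RPKM in H20, against 99.5, 107 and 87.6 in H6 (1.34 ± 0.10, edgeR adjusted p = 3.5e-08), and its H9 libraries, at 189, 193 and 202 RPKM, were already well above H6. S8-2 (contig 1224), also of the small subunit, had 698, 788 and 734 RPKM in H20, against 321, 395 and 305 in H6 (1.22 ± 0.13, edgeR adjusted p = 8.6e-07). In either gene the lowest H20 library was clear of the highest H6 library.

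Among the cytosolic large subunit members, L23A (contig 2659), which sits at the mouth of the exit tunnel, had 594, 681 and 628 RPKM in H20, against 271, 332 and 276 in H6 (1.21 ± 0.13, edgeR adjusted p = 8.8e-07). L18-2 (contig 257) had 379.6, 418 and 388 RPKM in H20, against 163, 197 and 188 in H6 (1.21 ± 0.12, edgeR adjusted p = 7.3e-07). L10-2 (contig 2054), a protein close to the catalytic centre, was the most abundant member of all, with a mean of 657 RPKM over the 12 libraries, ahead of S8-2 with 589 and L23A with 530.3. It had 347, 425 and 381 RPKM in H6, 643, 709.7 and 676 in H9, 799, 801 and 731 in H15, and 745, 849.8 and 781 in H20. Its rise came before day 15: the log2 fold change was 1.14 ± 0.11 in H20 against H6 (edgeR adjusted p = 3.65e-07) and 0.00 ± 0.11 in H20 against H15.

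S28-2, L30-1 and S25-2, which with L10-2 had the smallest fold changes of the class, are small proteins found in eukaryotic but not in bacterial ribosomes. S28-2 (contig 4421) had 379, 461 and 445 RPKM in H20, against 164, 247 and 229.5 in H6 (1.11 ± 0.18, edgeR adjusted p = 5.5e-05). Its H9 libraries held 399.9, 566 and 422 RPKM, and its log2 fold change in H9 against H6, 1.10 ± 0.18, was the largest of the cytosolic class in that interval. L30-1 (contig 1827) had 275, 334 and 289 RPKM in H20, against 131, 195 and 122 in H6 (1.10 ± 0.17, edgeR adjusted p = 4.3e-05). S25-2 (contig 4772) had 355, 431 and 381 RPKM in H20, against 170.2, 238 and 181 in H6 (1.09 ± 0.18, edgeR adjusted p = 5.2e-05). The H20 and the H6 libraries did not overlap for any of the 3, although library 2 of H6 stood well above the other H6 libraries in L30-1 and S25-2.

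The remaining cytosolic members were Sa-1, P0-2, L15-1 and S17-4. P0-2 (contig 544), the scaffold of the stalk of the cytosolic ribosome, averaged 341 ± 7.39 RPKM in H20 and 164 ± 19.1 in H6, and Sa-1 (contig 5849, P40), a small subunit protein, averaged 599.6 ± 26.3 in H20 and 289.8 ± 33.6 in H6. Both had a log2 fold change of 1.15. S17-4 averaged 428 ± 24.1 RPKM in H20 and 203 ± 37.4 in H6 (1.18). L15-1 was the least abundant cytosolic member, with 75.2 ± 5.96 RPKM in H20 and 36.1 ± 4.60 in H6 (1.16), a level within the range of the plastid members. In each class, the median member had 38.3 (plastid) and 412 (cytosolic) RPKM in H20, against 91.5 and 199 RPKM in H6.

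The libraries of a time point shared deviations across the members. Library 1 of H6 was the lowest of the 3 H6 libraries for 28 of the 29 plastid members, against 37.9% of all contigs, and library 2 of H6 was the highest for 12 of the 12 cytosolic members, against 31.1% of all contigs. In H20, library 2 was the highest for 12 of the 12 cytosolic members and library 1 the lowest for 11, against 33.8 and 38.0% of all contigs. The members of a class thus varied together between pools of the same age and do not count as independent measurements. The H20 against H6 counts were the same without each of these libraries.

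The 2 members placed in neither class are not core ribosomal proteins by their descriptions. Contig 4855 (AT3G23700) encodes a protein with the RNA-binding domain of S1. It had 6.76, 6.26 and 7.82 RPKM in H20, against 29.5, 38.2 and 31.6 in H6, the largest change of any of the 43 members (log2 fold change -2.15 ± 0.18, edgeR adjusted p = 1.1e-07). The larger part of its fall lay in H15 against H9 (-1.65 ± 0.17), with -0.59 ± 0.17 in H9 against H6. Contig 7561 (AT1G25260) encodes a protein of the L10 family. It had between 44.6 and 45 RPKM in the H6 libraries, 112, 153 and 124 in H9, 79.0, 86.8 and 74.2 in H15, and 63.1, 71.9 and 66.2 in H20. It was highest in H9, with no overlap with any other time point, and was higher by 0.68 ± 0.12 in H20 against H6 (edgeR adjusted p = 0.00015).

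Other genes of translation were counted by words in their symbols and descriptions, and few contigs of each kind were in the table. Of 7 contigs described by ribosome biogenesis or the nucleolus, 5 were higher (40.8% of all contigs) and 2 lower (52.8%) in H20 against H6. The 5 were a Gar1/Naf1 subunit of the particles that modify ribosomal RNA (AT3G03920; log2 fold change 1.33), NOP56, a core protein of the particles that methylate it (1.15), AT1G31660 (1.11), the nucleolar GTPase NSN1 (1.10) and IMP4, which acts in the processing of the small subunit RNA (1.08). The mean of NOP56 was 69.5 ± 10.6 RPKM on day 6, 137.8 ± 13.03 on day 9, 132 ± 8.12 on day 15 and 144 ± 9.73 on day 20. The 2 that fell, AT5G39590 (-1.36) and AT5G06260 (-0.63), are TLD-domain proteins that the description alone places in the nucleolus. Of the 2 cytosolic translation factors, an eIF-4 gamma like contig was higher (1.95). It had 16.6 ± 2.44 RPKM in H20 and 4.58 ± 0.993 in H6. LOS1, an elongation factor 2, had -0.37 with an edgeR adjusted p of 0.072. Between these time points LOS1 was not flat. It was lower in H9 against H6 (-1.02, edgeR adjusted p = 0.00031) and in H15 against H9 (-0.71, adjusted p = 0.0037). LOS1 was then higher in H20 against H15 (1.36, edgeR adjusted p = 0.00012). The eIF-4 gamma like contig had 1.07, 0.82 and 0.07 in the same intervals.

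The 3 contigs of plastid and other organelle translation factors were lower in H20 against H6 (52.8% of all contigs). They were a putative peptide chain release factor whose description gives no compartment (-1.11), emb2726, an elongation factor Ts (-0.90), and FUG1, the plastid initiation factor IF-2 (-0.56). emb2726 and FUG1 were also higher in H20 against H15, by 0.72 and 0.46 (edgeR adjusted p = 0.00045 and 0.0038). Of 11 contigs of plastid transcription, 9 were lower (52.8% of all contigs), with PTAC16 lowest (-1.57) and a plastid sigma subunit next (contig 6682, -0.96). SIG4, a sigma factor, was higher (0.82, with 3.75 ± 0.862 RPKM in H20 and 2.27 ± 0.390 in H6), beside 40.8% of all contigs. Its mean was higher in between, with 7.52 ± 2.94 RPKM in H9 and 14.9 ± 2.27 in H15, and it was lower in H20 against H15 (-2.02). The other contig was SIGE, also a sigma factor, with 0.24 and an edgeR adjusted p of 0.14. SIGE was higher in H9 against H6 (0.77), lower in H15 against H9 (-1.31) and higher in H20 against H15 (0.78). The median over the 11 was -0.87. The 2 contigs found by the words tRNA synthetase, whose descriptions give no compartment, were lower in H20 against H6 (52.8% of all contigs). TWN2, a valyl-tRNA synthetase, had a log2 fold change of -1.84. AT3G16565, described only as holding a domain of threonyl and alanyl tRNA synthetases, had -1.10.

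Markers of cell types also changed over the time course, not all in the order of a ribosomal class, and their part in these results was not tested. The 25 contigs of green tissue markers (light-harvesting proteins, photosystem subunits, the small subunit of Rubisco and Rubisco activase) were all lower in H20 against H6, with a median log2 fold change of -1.33. Their sum lay at 11876 to 13214 RPKM on day 6, 6814 to 7154 on day 9, 3421 to 3532 on day 15 and 4395 to 4591 on day 20, and 16 of the 25 were higher in H20 against H15. The 17 contigs of dividing cell markers summed to 1084 to 1293 RPKM on day 6, 719.9 to 871 on day 9, 1067 to 1223 on day 15 and 1186 to 1288 on day 20, and 16 were higher and 1 lower in H20 against H6. A histone H2B contig (554) held most of the sum on day 6, with 749 to 891 RPKM, against 298 to 450.2 on day 9, 384 to 412 on day 15 and 486 to 559 on day 20. The other 16 summed to 291 to 402 RPKM on day 6, 421 to 450.2 on day 9, 683 to 811 on day 15 and 699.8 to 729.6 on day 20, so that without contig 554, a split chosen after seeing the data, the sum was higher and not lower in H9 against H6. By contig, 11 of the 17 were called higher in H9 against H6 (37.9% of all contigs) and 4 lower (36.8%). The 4 were contig 554, the histone H2B contig HTB4 (-0.57), cyclin-B1-3 (-0.47) and cyclin-B2-3 (-0.44). The 12 contigs of xylem and fiber wall markers summed to 225 to 371 RPKM on day 6, 838 to 1242 on day 9, 2720 to 3068 on day 15 and 2653 to 2816 on day 20, with 10 higher in H20 against H6. In this sum CESA4 (contig 804) alone averaged 110 RPKM on day 6, 408 on day 9, 1581 on day 15 and 1421 on day 20. The 7 contigs of sieve element markers summed to 179 to 400.2 RPKM on day 6, 352 to 635 on day 9, 447 to 470.4 on day 15 and 805 to 898 on day 20, with 7 higher. No marker was listed at 0 RPKM in any library. All sieve element contigs but PP2-A9 share the match AT3G01680. Most xylem and fiber wall contigs share the match LAC17, among them the 2 not called in H20 against H6. Some green tissue contigs also share a match, namely contigs 1404, 1709 and 1241 (RCA) and contigs 6986 and 390 (PSBX). Contigs with 1 match may be parts or copies of 1 gene and are not independent markers. Of all contigs, 52.8% were called lower and 40.8% higher in H20 against H6, and 17.0% higher in H20 against H15.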

How the data were processed

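RNA-Seq of 12 pools was analysed, with samples grouped by the time point in their labels. The authors removed duplicates, assembled contigs de novo, mapped the reads with CLC Genomics Workbench 8.0.3 and annotated the contigs with Blast2GO PRO 3.0; versions are from their methods. The deposited count values are reads mapped uniquely to a contig. The deposited RPKM values are reads per kilobase of contig, scaled to the mapped reads of the library; whether they use the unique reads alone was not settled. The p-value and FDR columns of the authors' ANOVA were not used.

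Library totals were recovered from counts, RPKM and lengths (RPKM recomputed from the unique reads differed from the deposited values by at most 13.67, by over 1% for 79 contigs and 0 members, and by at most 0.327 for a member). One edgeR (4.0.16; R 4.3.3) model with 4 groups and TMM factors (0.926 to 1.06) was fitted to the counts of all contigs, and contrasts were tested by the quasi-likelihood method with 8 residual degrees of freedom. The low-count filter removed 0 contigs, and the biological coefficient of variation was 0.168. Adjusted p-values are Benjamini-Hochberg values over the 3622 contigs. TMM takes most contigs to be unchanged, which does not hold for a table of contigs chosen for changing. On data simulated for H20 against H6 (3622 contigs), edgeR called 96 of 100 contigs changed by a log2 of 1 and 13 of 3422 unchanged ones. Most simulated contigs were unchanged, and as many were raised as lowered, unlike in this table. The simulation therefore cannot show how edgeR does where the premise of TMM fails.

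Named by value were, in each class, the 4 largest and 4 lowest fold changes in H20 against H6, the 3 highest means and any call against the class, and from other translation lists the 2 largest and 2 lowest. Further genes were named after their values were seen. Members and lists were chosen with earlier results of these data known. Same-numbered pools deviated together in no regular way (r from -0.284 to 0.256 over 18 pairs, 4 over 0.1). Alternatives were mapped-read totals alone, DESeq2 1.42.0, limma 3.58.1 on log2(RPKM + 1) and log2(RPKM + 0.1), no filter, a mean of at least 100 reads, a replicate block, the 2 time points alone, classes by description alone and leaving out each library. Tables were handled in Python 3.11.15 with pandas 2.3.3 and numpy 2.4.6, and figures drawn with matplotlib 3.10.9.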

Additional observations from a re-analysis of the deposited data

How the results depend on the processing

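The calls in H20 against H6 (28 plastid members lower and 1 higher, 12 cytosolic members higher) were the same in all alternatives and without each library, except that 27 plastid members were lower where a mean of at least 100 reads left out L28 or where classes by description alone left out L10, and 0 results reversed. In H9 against H6, DESeq2 called 2 plastid members higher in place of 1, the further one being L1. In H15 against H9, limma with either pseudocount called 19 plastid members lower in place of 12 and mapped-read totals alone 18, and both called 1 cytosolic member higher in place of 4. In H20 against H15, DESeq2 called 8 plastid members higher in place of 5 and the fit of the 2 time points alone 10, and that fit called 4 cytosolic members higher in place of 0. Without 1 library at a time, plastid members higher in H20 against H15 ranged from 1 to 7, cytosolic members higher in H15 against H9 from 2 to 6, plastid members lower in H15 against H9 from 10 to 16 and in H9 against H6 from 26 to 27. Replicate numbers do not pair the pools; with the replicate block, 13 plastid members were lower and 6 cytosolic members higher in H15 against H9, and the other counts were those without the block. Scaling shifted the median of all contigs by 0.29 in H20 against H6 and 0.23 in H9 against H6 with DESeq2, by 0.24 in H20 against H6 with those time points alone, and by -0.14 in H15 against H9 with mapped-read totals alone; the H20 against H6 medians with DESeq2 were -0.82 for plastid and 1.45 for cytosolic members. The cause of these differences was not tested. Precision is limited by 3 pools per time point and, for L28, by as few as 32 reads.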
